A study of Oryza sativa with 8 samples.

Results

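The loci described here are 9 rice loci listed as gibberellin 2-oxidases, out of 55801 loci in an expression table of shaded and unshaded seedlings. They were taken by locus identifier as GA2ox1 to GA2ox8, with LOC_Os01g11150 added for its annotation as a gibberellin 2-beta-dioxygenase. LOC_Os02g41954, listed in the place of GA2ox7, and LOC_Os01g11150 are named by locus, since their gene names could not be checked. The samples are wild type Nipponbare rice. RNA came from the coleoptile, the sheath around the young shoot, of seedlings 2 days old, and from the first leaf of seedlings 3 days old. Seeds were soaked at 37 °C for 24 h and seedlings grew at 28 °C in continuous white light. In each tissue, 2 libraries came from seedlings left in white light and 2 from seedlings given 1 h of simulated shade, a light rich in far-red (48 µE per square metre each second) with less red (16) and blue (1.3). Tissue and age differ together and cannot be told apart. Separate plantings are not stated for the replicates, so every p-value rests on a spread between libraries that may be only technical.

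Gibberellins are hormones that promote elongation of shoots. Gibberellin 20-oxidases and 3-oxidases make the active forms, and gibberellin 2-oxidases end their activity by adding a hydroxyl group at a position that blocks recognition by the receptor GID1. Enzymes such as rice GA2ox1 and GA2ox3 act on active gibberellins and their immediate precursors, whereas rice GA2ox5 and GA2ox6 belong to a class that acts on earlier precursors. Low red to far-red light, the signal of shade, is known in many plants to act on gibberellin levels. Whether transcripts of the inactivating enzymes differed after 1 h of shade in each tissue is the question of the comparisons given here.

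All values are FPKM, fragments scaled by transcript length and by the fragments mapped in the library, so levels of different loci are on a scale per length. In bulk tissue, fewer expressing cells and less RNA per cell cannot be told apart. FPKM summed to between 696059 and 808054 per library. Total fragment numbers are not given. From the step between low values, depth relative to the first shaded coleoptile library ranged from 0.828 to 1.37. The table's annotation calls 8 of the 9 loci a gibberellin 2-oxidase or 2-beta-dioxygenase. Chlorophyll A-B binding protein transcripts, which mark green tissue, summed to between 31440 and 35180 FPKM in the white light first leaf and to between 12420 and 21770 FPKM in the white light coleoptile. The 12 loci listed for the shoot apex, all annotated as homeobox or knotted-1 type proteins or their partner, summed to between 213.4 and 433.2 FPKM over the 8 libraries. Of these, OSH1, which marks the meristem, was at most 0.135 FPKM, OSH15 at most 1.36 FPKM and OSH71 at most 2.10 FPKM. Others were far higher, such as LOC_Os03g03164 with a mean of 114 FPKM and LOC_Os06g43860 with 81.2 FPKM. The list therefore gives no single reading of apex tissue. Of 43 loci annotated as glutelin or prolamin, the seed storage proteins, 35 were listed at 0 in every library.

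Coleoptile white light replicate 1 stood apart, and it bears on most results here. Its replicates correlated at r = 0.914 across the tested loci, against r = 0.975 to r = 0.982 in the other groups, and FPKM + 1 differed by over 2-fold between the replicates at 3167 loci. The 7 loci annotated with a ZIM domain, repressors of jasmonate signalling that are induced by wounding, summed to 2481 FPKM in it and 991.8 FPKM in replicate 2. In the shaded coleoptile they summed to 280.8 and 282.9 FPKM. The 105 WRKY loci, a family of transcription factors best known from defence, summed to 2617 and 1127 FPKM in white light and to 721.6 and 743.4 FPKM in shade. Their first leaf sums, between 817.3 and 1265 FPKM, span the value of replicate 2. Of the 70 tested WRKY loci, 50 had a negative log2 change with shade in the coleoptile and 20 a positive one. Of the 105, 46 were highest in coleoptile white light replicate 1. All 6 tested 2-oxidase loci had their highest value in that library, as had 18.7% of all tested loci. Coleoptile white light replicate 2 lay above both shaded coleoptile libraries for 4 of the 6, as for 40.1% of all tested loci. The coleoptile results are given with and without replicate 1.

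The annotation goes against one label. LOC_Os01g22910, listed as GA2ox2, is annotated as an unclassified retrotransposon protein. It was at or under 0.116 FPKM and was listed at 0 in 4 libraries. The neighbouring identifier LOC_Os01g22920, which is not among the 9, is annotated as a gibberellin 2-beta-dioxygenase and was listed at 0 in all 8 libraries. Neither identifier therefore gives a level that can be compared between groups.

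GA2ox1 (LOC_Os05g06670) and GA2ox5 (LOC_Os07g01340) were also low. GA2ox1 was at 0.250 and 0.111 FPKM in the white light coleoptile, 0.191 and 0.220 FPKM in the shaded coleoptile, 0.0997 and 0.347 FPKM in the white light first leaf and 0.384 and 0.128 FPKM in the shaded first leaf. All 4 groups overlapped. Scaled by the step of each library, its values could come from as few as 2 to 11 fragments, which is a lower bound. With numbers that may be so small, a difference between groups could be missed. GA2ox5 was at 1.84 and 0.158 FPKM in the white light coleoptile, 0.589 and 0.208 FPKM in the shaded coleoptile, 0.802 and 0.821 FPKM in the white light first leaf and 0.231 and 0.322 FPKM in the shaded first leaf. In the first leaf the white light libraries lay above the shaded ones, and in the coleoptile the groups overlapped. With no filter on low values, the log2 change of GA2ox5 with shade was -0.51 in the first leaf and -0.39 in the coleoptile (limma adjusted p = 1 and 0.906).

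Tests covered 21014 loci, those averaging 1 FPKM or more across libraries. Of the 9 listed, 6 passed this filter: GA2ox3, GA2ox4, GA2ox6, GA2ox8, LOC_Os02g41954 and LOC_Os01g11150. GA2ox8 passed only through coleoptile white light replicate 1, since its mean over the 7 other libraries was 0.573 FPKM. It therefore had to be higher there, and counts over the 6 describe these loci and do not support a difference.

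**Figure D1:**
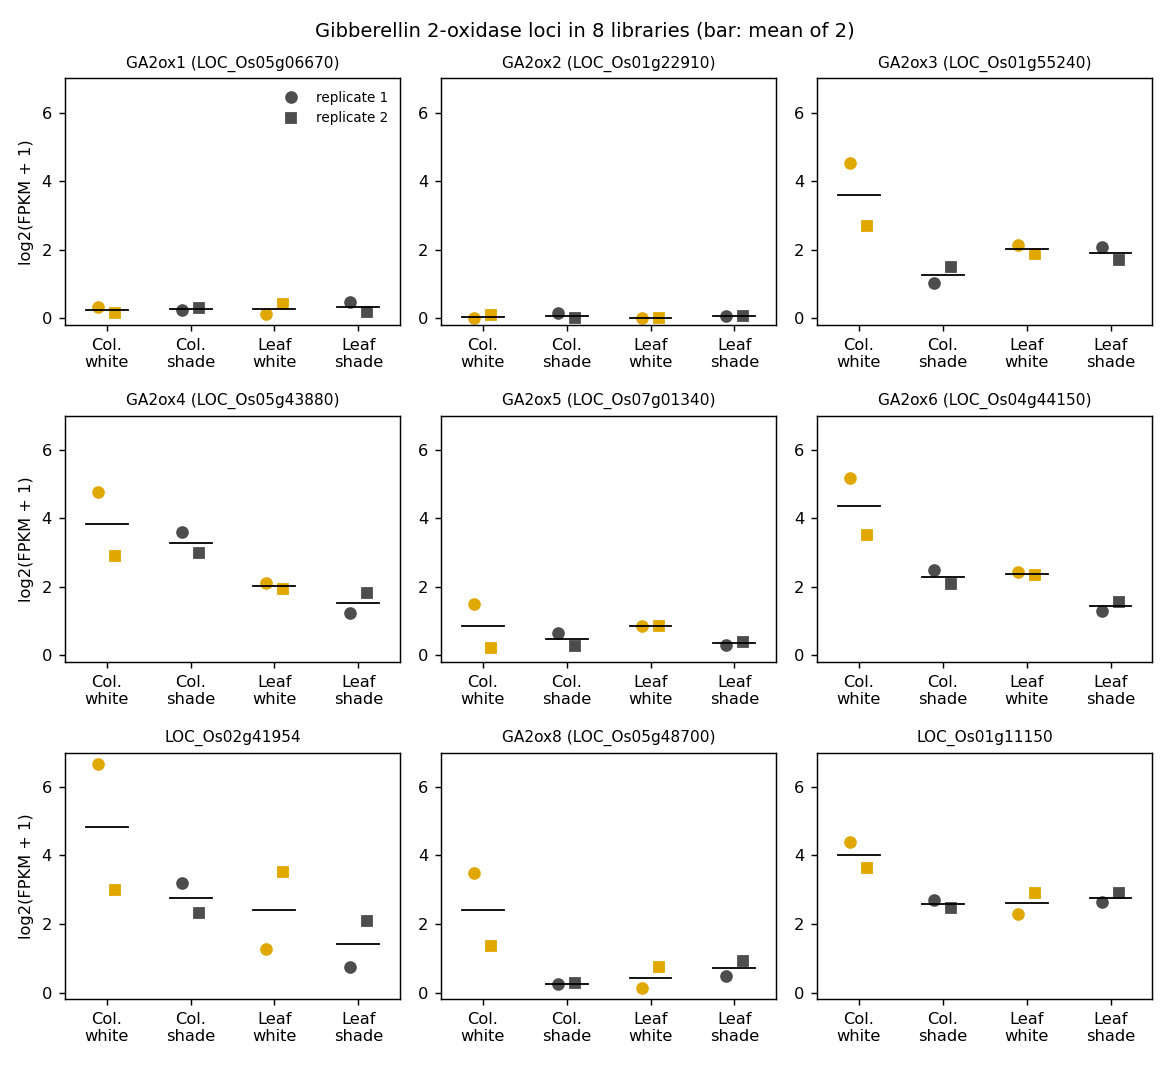
Level of each of the 9 loci in the 8 libraries as log2(FPKM + 1), with the coleoptile (Col.) and first leaf in white light (yellow) and after 1 h of shade (grey); circles are replicate 1, squares replicate 2, and bars the mean of the 2 log2 values. The circle of the white light coleoptile is the highest point for the 6 tested loci, from 10.1 FPKM for GA2ox8 to 100.9 FPKM for LOC_Os02g41954, while GA2ox1 and the locus listed as GA2ox2 stay near 0.

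In the coleoptile, all 6 tested loci had a lower mean after 1 h of shade than in white light, and none passed the threshold. For GA2ox3, GA2ox6, GA2ox8 and LOC_Os01g11150 both shaded libraries lay below both white light libraries, and for GA2ox4 and LOC_Os02g41954 the groups overlapped.

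GA2ox3 (LOC_Os01g55240), an enzyme that inactivates active gibberellins, was at 21.9 and 5.51 FPKM in white light and at 1.03 and 1.80 FPKM in shade. The lower white light library was above both shaded ones. The log2 change was -2.36 ± 0.54 (SE), with a limma adjusted p of 0.168, and the white light mean was 9.70-fold the shaded mean. Its values in the shaded coleoptile were also below those of both first leaf groups.

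GA2ox8 (LOC_Os05g48700) was at 10.1 and 1.55 FPKM in white light and at 0.184 and 0.212 FPKM in shade. The groups did not overlap, and only first leaf white light replicate 1, at 0.0958 FPKM, was below the shaded coleoptile libraries. The log2 change was -2.15 ± 0.63 (adjusted p = 0.265), which understates the change of a locus so low in shade.

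LOC_Os01g11150, annotated as a gibberellin 2-beta-dioxygenase, was at 19.97 and 11.5 FPKM in white light and at 5.57 and 4.50 FPKM in shade. Its white light replicates were the closest to each other of the 6 loci, 1.73-fold apart. The log2 change was -1.43 ± 0.32 (adjusted p = 0.161).

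Of the loci annotated as gibberellin 2-beta-dioxygenase 7, GA2ox6 (LOC_Os04g44150), of the class that acts on precursors, was at 35.5 and 10.3 FPKM in white light and at 4.59 and 3.26 FPKM in shade. The groups did not overlap, and the log2 change was -2.06 ± 0.49 (adjusted p = 0.182). LOC_Os02g41954 was at 100.9 and 6.93 FPKM in white light and at 8.08 and 3.97 FPKM in shade. White light replicate 2 lay between the shaded libraries, so that the mean difference rested on replicate 1, which was 14.5-fold higher than replicate 2. The log2 change was -2.08 ± 1.22 (adjusted p = 0.699).

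GA2ox4 (LOC_Os05g43880) was at 26.5 and 6.46 FPKM in white light and at 11.0 and 6.93 FPKM in shade. White light replicate 2 was below both shaded libraries and replicate 1 above them. The log2 change was -0.55 ± 0.57 (adjusted p = 0.917).

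Limma called 0 of the 6 loci as lower in shade, where it called 0.00952% of all tested loci as lower and 0.0333% as higher. At an unadjusted p under 0.05, 4 of the 6 were lower and 0 higher, against 5.74% and 4.17% of all tested loci. The groups did not overlap, with shade lower, for 4 of the 6 and for 15.3% of all tested loci, and with shade higher for 0 of the 6 and 17.3%. The median log2 change was -2.07 over the 6 and 0.02 over all tested loci.

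Without coleoptile white light replicate 1, the log2 change was -1.45 ± 0.30 for GA2ox3 (adjusted p = 0.072), -1.22 ± 0.26 for GA2ox6 (adjusted p = 0.0758), -1.09 ± 0.35 for GA2ox8 (adjusted p = 0.191) and -1.06 ± 0.30 for LOC_Os01g11150 (adjusted p = 0.147). These 4 stayed negative, as they had to, since their white light replicate 2 lay above both shaded libraries. They were smaller in size, with smaller standard errors in a fit that no longer held the white light coleoptile spread. The sign of GA2ox4 was fixed as well, by a white light replicate 2 below both shaded libraries. LOC_Os02g41954 was then at -0.24 ± 0.91 (adjusted p = 0.938), and GA2ox4 turned to 0.39 ± 0.34 (adjusted p = 0.651). In that fit 0 of the 6 were called. Without replicate 2, so that replicate 1 stood alone for white light, all 6 were called as lower, from -1.49 for GA2ox4 (adjusted p = 0.0386) to -3.92 for LOC_Os02g41954 (adjusted p = 0.0423). Calls rose over all tested loci too, to 6.34% lower and 1.94% higher without replicate 2, and to 0.447% lower and 0.657% higher without replicate 1. Both fits leave 1 white light coleoptile library, which is assumed to vary like the other groups. Both also kept the loci that passed the filter on all libraries, so GA2ox8 and others admitted only by replicate 1 stayed in without it. The ZIM domain and WRKY sums were also higher in both white light coleoptile libraries than in the shaded ones, and their part in the 2-oxidase values was not tested.

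**Figure D2:**
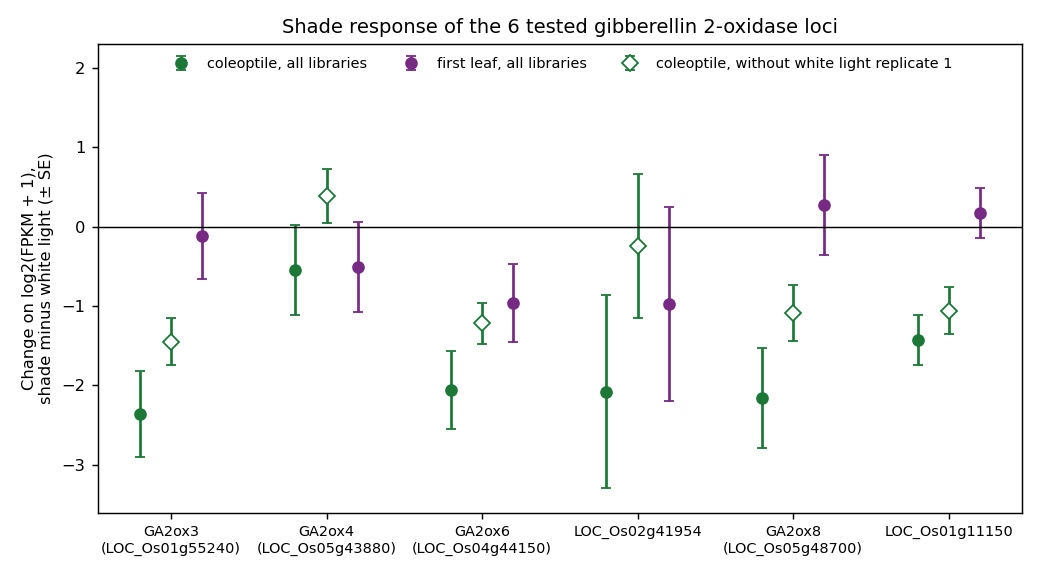
Change of the 6 tested loci with 1 h of shade, as the difference of mean log2(FPKM + 1) with its standard error, for the coleoptile with all libraries (filled green), the coleoptile without white light replicate 1 (open green) and the first leaf (purple). GA2ox3, GA2ox6, GA2ox8 and LOC_Os01g11150 lie between -1.06 and -2.36 in the coleoptile in both fits, while GA2ox4 moves from -0.55 to 0.39.

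In the first leaf, changes with shade were smaller in size than in the coleoptile for each of the 6 loci with all libraries. Set against the coleoptile without white light replicate 1, they were larger for LOC_Os02g41954 and GA2ox4. Limma called 0 of the 6, as it called 0% of all tested loci in either direction. GA2ox6 was at 4.43 and 4.04 FPKM in white light and at 1.45 and 1.97 FPKM in shade, with a log2 change of -0.96 ± 0.49 (adjusted p = 1). GA2ox4 was at 3.37 and 2.82 FPKM in white light and at 1.35 and 2.51 FPKM in shade (log2 change -0.51 ± 0.57, adjusted p = 1). For these 2 of the 6 loci both shaded libraries lay below both white light libraries, which held for 18.3% of all tested loci, and for 0 of the 6 the shaded libraries lay above, which held for 21.3%. The ZIM domain sums overlapped in the first leaf, at 470.2 to 754.5 FPKM in white light and 462.5 to 766.7 FPKM in shade.

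The other loci overlapped between white light and shade in the first leaf. GA2ox3 was at 3.40 and 2.70 FPKM in white light and at 3.22 and 2.26 FPKM in shade, a log2 change of -0.12 ± 0.54. LOC_Os01g11150 was at 3.89 and 6.51 FPKM in white light and at 5.22 and 6.53 FPKM in shade, a log2 change of 0.17 ± 0.32. Both were thus within the spread of their replicates. LOC_Os02g41954 was at 1.42 and 10.5 FPKM in white light and at 0.692 and 3.23 FPKM in shade (log2 change -0.98 ± 1.22), and GA2ox8 was at 0.0958 and 0.667 FPKM in white light and at 0.402 and 0.899 FPKM in shade (log2 change 0.27 ± 0.63). The replicates of LOC_Os02g41954 were far apart in both first leaf groups. At an unadjusted p under 0.05, 0 of the 6 were lower or higher, against 2.47% and 3.01% of all tested loci.

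Whether shade acted differently in the first leaf than in the coleoptile was tested as an interaction, given as the first leaf log2 change minus that of the coleoptile. Limma called 0 of the 6 loci as higher or lower, against 0.00476% and 0.0143% of all tested loci. The difference was 2.24 ± 0.76 for GA2ox3 (adjusted p = 0.756), 2.42 ± 0.89 for GA2ox8 (adjusted p = 0.789) and 1.61 ± 0.45 for LOC_Os01g11150 (adjusted p = 0.614). These 3 had an unadjusted p under 0.05, as had 3.64% of all tested loci in that direction, while 0 of the 6 and 1.94% of all tested loci had one in the other. For GA2ox6 it was 1.10 ± 0.70, for LOC_Os02g41954 1.10 ± 1.72 and for GA2ox4 0.04 ± 0.80 (adjusted p = 1 for each). A different response of the 2-oxidase loci in the 2 tissues was therefore not shown over all loci. Without coleoptile white light replicate 2 it was called as higher for 4 of the 6 and for 3.61% of all tested loci, and without replicate 1 for 0 of the 6 and 0.152%.

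Between tissues in white light, 2 of the 6 loci passed the threshold, both lower in the first leaf. GA2ox6 had a log2 difference of -1.96 ± 0.49, at 4.24 ± 0.277 FPKM in the first leaf and 22.9 ± 17.8 FPKM in the coleoptile (SD, n = 2; limma adjusted p = 0.0464). LOC_Os01g11150 had a log2 difference of -1.42 ± 0.32, at 5.20 ± 1.85 FPKM against 15.7 ± 5.97 FPKM (adjusted p = 0.031). Of all tested loci, 5.03% were called as lower and 5.92% as higher. At an unadjusted p under 0.05, 5 of the 6 were lower and 0 higher, against 12.2% and 12.8% of all tested loci. In 5 of the 6, all but LOC_Os02g41954, both first leaf libraries lay below both coleoptile libraries, as in 23% of all tested loci. The log2 difference of the others was -1.60 for GA2ox3 (adjusted p = 0.113), -1.81 for GA2ox4 (adjusted p = 0.0937), -1.98 for GA2ox8 (adjusted p = 0.0967) and -2.43 for LOC_Os02g41954 (adjusted p = 0.276).

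The tissue calls depended on the libraries. Without coleoptile white light replicate 1, GA2ox6 was still called (-1.12, adjusted p = 0.0254) and LOC_Os01g11150 was not (-1.05, adjusted p = 0.0515). Of all tested loci, 8.21% were then called as lower. Without replicate 2 all 6 were called, with 10.7% of all tested loci lower. Leaving out any one of the 6 other libraries left 0 called, with 1.8% to 3.72% of all tested loci lower.

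In shade the sign of the tissue difference varied between the 6 loci, and none passed the threshold. GA2ox4 was higher in the coleoptile, at 8.98 ± 2.91 FPKM against 1.93 ± 0.819 FPKM in the first leaf (SD, n = 2), a log2 difference of -1.77 ± 0.57 (adjusted p = 0.104). GA2ox6 (-0.86, adjusted p = 0.352) and LOC_Os02g41954 (-1.33, adjusted p = 0.579) also lay lower in the first leaf without overlap. GA2ox3 (0.64, adjusted p = 0.539) and GA2ox8 (0.45, adjusted p = 0.733) lay higher in the first leaf without overlap, and LOC_Os01g11150 overlapped (0.19, adjusted p = 0.781). The groups did not overlap, with the first leaf lower, for 3 of the 6 and for 29.4% of all tested loci. With the first leaf higher, this held for 2 of the 6 and for 31.2%. Limma called 0 of the 6 as lower or higher, against 4.63% and 5.67% of all tested loci. At an unadjusted p under 0.05, 1 of the 6, GA2ox4, was lower and 0 higher, against 11% and 13.3% of all tested loci. Without either white light coleoptile library, which changes only the shared estimate of the spread, GA2ox4 and GA2ox6 were called as lower (adjusted p = 0.00489 and 0.0276 without replicate 1, and 0.0048 and 0.0259 without replicate 2). In these fits 9.27% and 9.19% of all tested loci were called as lower.

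The order of the 4 groups differed between loci. All 6 had their highest group mean in the white light coleoptile. The next group overlapped with it for GA2ox4 and LOC_Os02g41954, in both cases the shaded coleoptile, and lay below it for the 4 others. GA2ox3 then stood at 3.05 FPKM in the white light first leaf and 2.75 FPKM in the shaded one, which overlapped, and at 1.41 FPKM in the shaded coleoptile, which lay below both. GA2ox6 had 4.24 FPKM in the white light first leaf and 3.92 FPKM in the shaded coleoptile, which overlapped, and 1.71 FPKM in the shaded first leaf, below both. The 3 lower groups of LOC_Os01g11150, at 5.87, 5.20 and 5.03 FPKM, each overlapped with the next, and so did those of GA2ox8 and LOC_Os02g41954. How many of all tested loci have a top group set apart in this way was not counted. These orders therefore describe the 6 loci only, of which GA2ox8 passed the filter only through coleoptile white light replicate 1.

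Summed over the 9 loci, 2-oxidase transcripts were at 216.9 and 42.6 FPKM in the white light coleoptile, 31.4 and 21.1 FPKM in the shaded coleoptile, 17.5 and 28.4 FPKM in the white light first leaf and 13.0 and 17.9 FPKM in the shaded first leaf. Both white light coleoptile libraries were above all others, and the first leaf groups overlapped. The leading locus changed between libraries. LOC_Os02g41954 made up 46.5% of the sum in coleoptile white light replicate 1 and 36.9% in first leaf white light replicate 2. GA2ox4 led in the shaded coleoptile, with 35.2% and 32.8%, and LOC_Os01g11150 in the shaded first leaf, with 40.2% and 36.5%. The 3 loci annotated as 2-beta-dioxygenase 7 (GA2ox5, GA2ox6 and LOC_Os02g41954) summed to 138.2 FPKM in coleoptile white light replicate 1 and 17.4 FPKM in replicate 2, and the 5 other annotated loci to 78.7 and 25.1 FPKM.

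**Figure D3:**
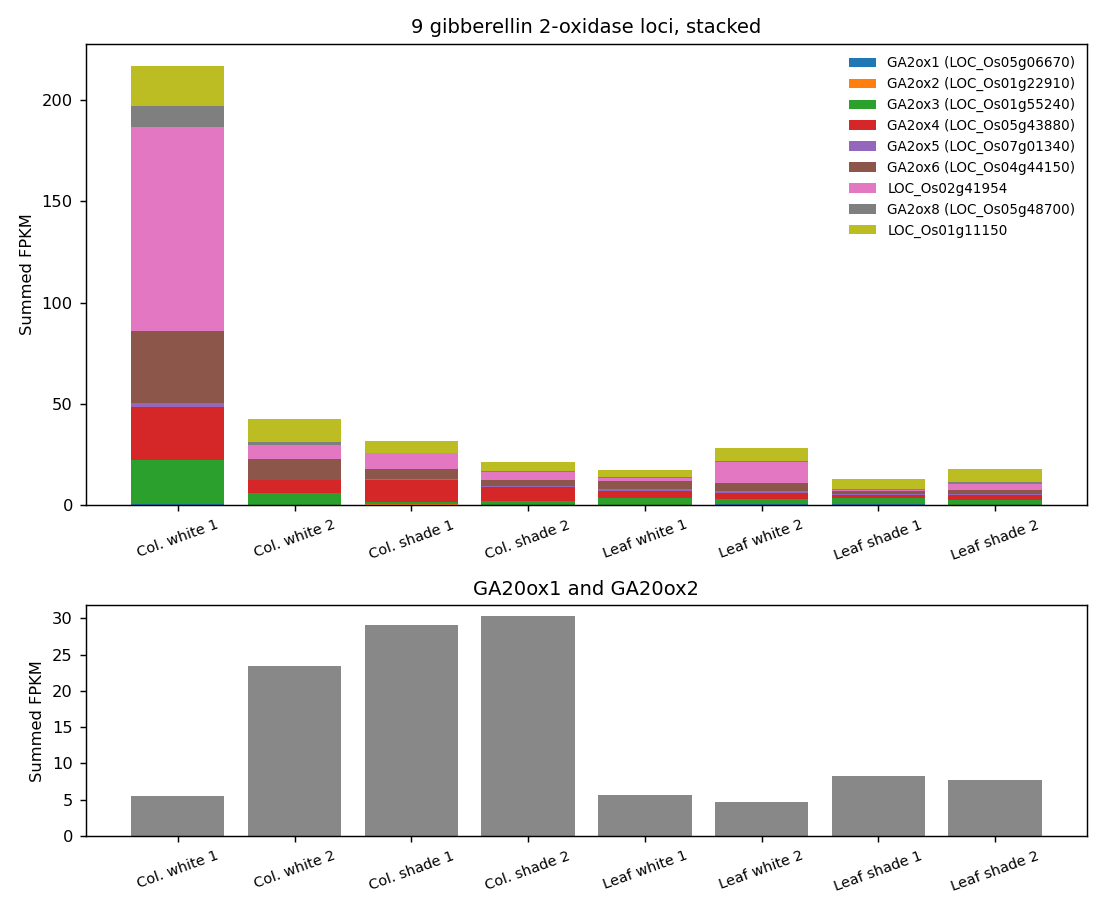
Summed FPKM in each library of the 9 loci, stacked by locus (top), and of the synthesis genes GA20ox1 and GA20ox2 (bottom), with coleoptile (Col.) and first leaf libraries by light and replicate. White light coleoptile replicate 1 has the highest 2-oxidase sum, 216.9 FPKM, and with 5.50 FPKM one of the low GA20ox sums.

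GA20ox1 and GA20ox2, enzymes of gibberellin synthesis, summed to 5.50 and 23.5 FPKM in the white light coleoptile and to 29.1 and 30.2 FPKM in shade. The ratio of this sum to that of the 9 loci was 0.0254 and 0.550 in the white light coleoptile and 0.927 and 1.43 in the shaded one. In the first leaf it was 0.319 and 0.164 in white light and 0.633 and 0.433 in shade. In both tissues the shaded libraries had the higher ratio without overlap. How often ratios of other loci do so was not counted, and the first leaf sums of the 9 loci overlapped between white light and shade. The ratio combines transcripts only and is given without a test, and in the white light coleoptile it was far lower in replicate 1 than in replicate 2.

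Across the 8 libraries the 6 loci varied together, with pairwise Pearson r on log2(FPKM + 1) from 0.538 to 0.958 over 15 pairs (median 0.858). The libraries differ in tissue, light and depth, which are the same for all 6 loci within a library, and 1 library is high for all 6. Over the 7 libraries without coleoptile white light replicate 1, r ran from -0.403 to 0.942 (median 0.515) and was negative for 3 pairs. GA2ox8 and LOC_Os01g11150 kept r = 0.942, and GA2ox3 and GA2ox4 moved from 0.538 to -0.403.

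For each tested locus, the loci with the most similar pattern over the 8 libraries were also highest in coleoptile white light replicate 1. They were picked for the highest r among all tested loci with an annotated function, so this follows from the choice. The r values are the top of that search and are given without a test. The nearest to GA2ox3 was LOC_Os04g44900, a lectin-like receptor kinase (r = 0.983, and 0.945 without that library), at 45.6 and 9.69 FPKM in the white light coleoptile and 3.11 and 4.42 FPKM in the shaded one. The nearest to GA2ox6 was LOC_Os03g49440, a phosphatase (r = 0.987 and 0.981). It was at 211 and 123 FPKM in the white light coleoptile, 75.7 and 54.5 FPKM in the shaded one, 81.7 and 69.2 FPKM in the white light first leaf and 41.8 and 50.1 FPKM in the shaded first leaf. GA2ox4 was most like LOC_Os08g44340, a monodehydroascorbate reductase (r = 0.988 and 0.977), and LOC_Os02g41954 most like LOC_Os03g17230, of an NAD dependent epimerase family (r = 0.981 and 0.950). GA2ox8 was most like LOC_Os05g32630, a mitochondrial carrier (r = 0.991 and 0.938), and LOC_Os01g11150 most like LOC_Os03g57210, a glycine-rich protein (r = 0.978 and 0.948). The second in likeness were LOC_Os05g39260 for GA2ox3, LOC_Os03g25920 for GA2ox4, LOC_Os02g07750 for GA2ox6, LOC_Os10g31950 for LOC_Os02g41954, LOC_Os04g51970 for GA2ox8 and LOC_Os01g19970, a MYB factor, for LOC_Os01g11150 (r = 0.976 to 0.986).

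Of the other loci annotated as gibberellin 2-beta-dioxygenases, LOC_Os05g11810 and LOC_Os04g33360 were tested and neither was called for shade. LOC_Os05g11810 was at 68.8 and 24.8 FPKM in the white light coleoptile and 29.1 and 24.9 FPKM in the shaded one, and between 23.3 and 32.0 FPKM in the first leaf. Its highest value was again in coleoptile white light replicate 1, and its other 7 values lay close together (coleoptile log2 change -0.60 ± 0.42, adjusted p = 0.786). Its mean of 31.6 FPKM was above that of each of the 9 loci. LOC_Os04g33360 was at 2.60 and 1.80 FPKM in the white light coleoptile and 3.65 and 2.72 FPKM in the shaded one, so that shade was higher without overlap (0.39 ± 0.25, adjusted p = 0.743).

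Of 16 other gibberellin genes listed by role, 12 were tested, and limma called 0 of them for shade in either tissue. In the coleoptile 10 of the 12 had a positive log2 change (median 0.12), and in the first leaf 9 (median 0.20). Over all tested loci the medians were 0.02 and 0.006, and 47% and 48.8% of the changes were negative. Among the synthesis genes of early steps, 4 of 4 were positive in the coleoptile, at 0.07 to 0.37, and 2 of 4 in the first leaf. KAO (LOC_Os06g02019), which completes the early steps, was at 3.90 and 5.25 FPKM in the white light first leaf and 9.997 and 18.1 FPKM in the shaded one (1.39 ± 0.40, adjusted p = 0.591).

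Among late synthesis genes, GA20ox2 (LOC_Os01g66100), known as the semidwarf locus of rice, was at 1.88 and 3.35 FPKM in the white light coleoptile and 14.5 and 14.3 FPKM in the shaded one (2.12 ± 0.24, adjusted p = 0.062). It was at 0.696 and 0.807 FPKM in the white light first leaf and 2.55 and 2.65 FPKM in the shaded one (1.04 ± 0.24, adjusted p = 0.447). Both tissues thus had higher values in shade without overlap. GA20ox1 (LOC_Os03g63970) was at 3.63 and 20.1 FPKM in the white light coleoptile, on either side of the shaded values of 14.6 and 16.0 FPKM (0.72 ± 0.60, adjusted p = 0.862). GA20ox3 and GA3ox1 were listed at 0 in every library, and GA3ox2 (LOC_Os01g08220) was between 2.06 and 3.34 FPKM throughout.

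Among other inactivating enzymes, EUI1 (LOC_Os05g40384), which inactivates gibberellins by another reaction, was at most 0.352 FPKM. CYP714B2 (LOC_Os03g04680), which hydroxylates gibberellin precursors, was at 116 and 197 FPKM in the white light coleoptile and 295 and 211 FPKM in the shaded one (0.72 ± 0.29, adjusted p = 0.473). Both shaded libraries lay above both white light libraries, and the lowest coleoptile value was in white light replicate 1. For perception, 1 of 3 loci had a positive change in the coleoptile and 3 of 3 in the first leaf, none of them called. SLR1 (LOC_Os03g49990), the repressor of gibberellin responses, was at 71.1 and 70.6 FPKM in the white light first leaf and 101 and 98.2 FPKM in the shaded one (0.48 ± 0.32, adjusted p = 1). LOC_Os02g36974, placed on the list as GID2, is annotated as a member of another protein family, so its place is uncertain.

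Between tissues, 3 of the 12 were called as lower in white light and 0 as higher, against 5.03% and 5.92% of all tested loci. CPS1 (LOC_Os02g17780), KAO and GA20ox2 were lower in the white light first leaf, with log2 differences of -1.67, -1.85 and -1.01 (limma adjusted p = 0.0339, 0.028 and 0.0391). In shade, CPS1 (-1.88), GA20ox2 (-2.10) and CYP714B2 (-1.21) were called as lower in the first leaf (adjusted p = 0.0235, 0.00289 and 0.0427), and LOC_Os02g36974 as higher (0.70, adjusted p = 0.0351). The shares of all tested loci called in shade were 4.63% lower and 5.67% higher.

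**Figure D4:**
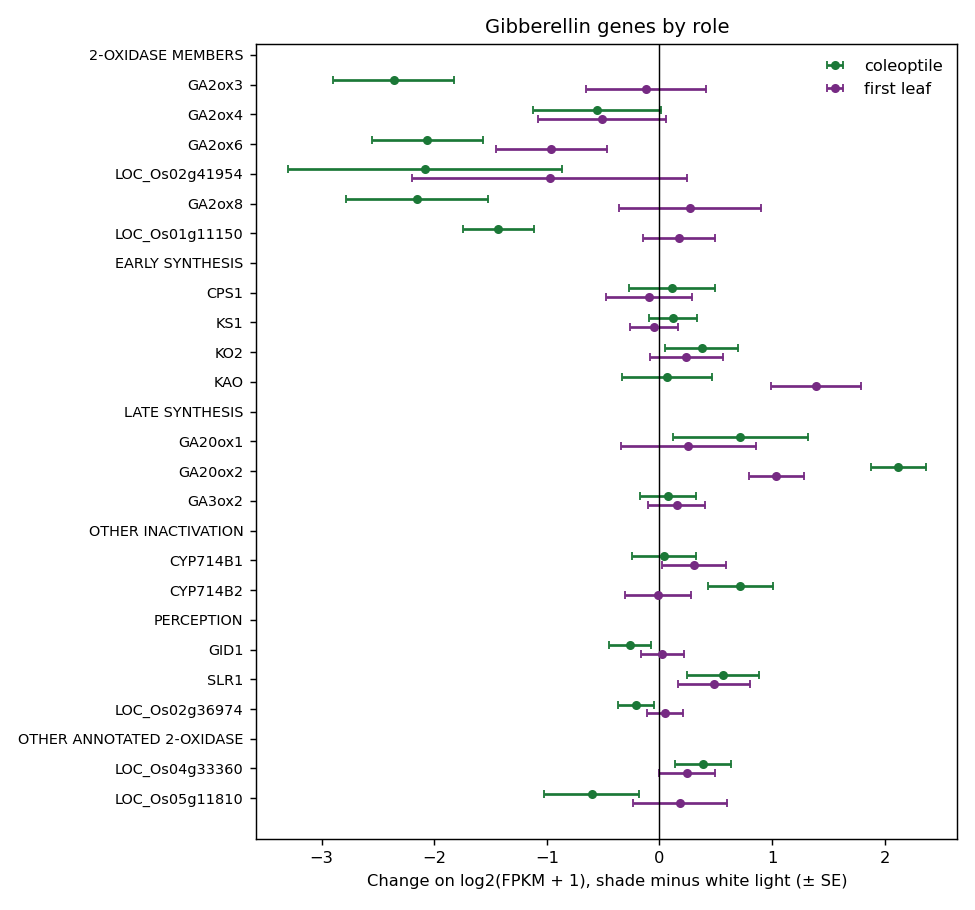
Change with 1 h of shade of the tested gibberellin genes, grouped by role, as the difference of mean log2(FPKM + 1) with its standard error, in the coleoptile (green) and the first leaf (purple). The 6 tested 2-oxidase loci of the 9 lie left of 0 in the coleoptile, down to -2.36 for GA2ox3, and GA20ox2 lies farthest to the right, at 2.12.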

How the data were processed

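RNA from 8 libraries was sequenced as paired reads of 150 bp, per the labels. The authors deposited FPKM values for each library; the genome build was not given in the sources used here, nor was the annotation release. Tools listed without roles, per the submitters' processing notes, are Cufflinks, Cuffdiff and Cuffnorm 2.2.1, Bowtie2 2.2.3, TopHat2 2.0.14, FastQC 0.11.2, Trim Galore 0.3.7 and bcl2fastq 2.16.0.10. FPKM values are not counts, so no count model was used. Values of similar paralogs can share reads.

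Tests ran in limma 3.58.1 under R 4.3.3, on log2(FPKM + 1) of loci averaging 1 FPKM or more. The 4 groups were fitted together as cell means with a trended empirical Bayes prior (4 residual and 3.26 prior degrees of freedom). The threshold was 0.05 on p adjusted by Benjamini-Hochberg over all tested loci. Relative depth came from the most frequent ratio between values under 0.3 FPKM, and fragment numbers are the smallest whole series within 0.15. That ratio held for as few as 3.8% of the loci compared in a library, and for at most 19.1% outside the reference library. No sequences are shown.

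The 9 loci and the lists were chosen with earlier results of these data known. All 9 were named, with list members called or among the 3 largest shade changes, other annotated 2-oxidases over 1 FPKM, and the 2 most similar loci with an annotated function. Further list members shown were chosen after their values were seen. Alternatives changed the pseudocount, filter, scaling, libraries and pairing.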

Additional observations from a re-analysis of the deposited data

How the results depend on the processing

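The number of 2-oxidase loci called ran from 0 to 6 over the fits without one library for coleoptile shade, from 0 to 4 for the difference of responses, from 0 to 6 for tissue in white light and from 0 to 2 for tissue in shade, and was 0 in each of them for first leaf shade. For tissue in white light, where 2 were called, the count was 0 with no filter, 1 with a mean of at least 5 FPKM, 0 with only the white light libraries and 1 with the replicate block. Over all loci, 2303 of 21014 were called for that comparison in the main fit. In the same order, the alternatives called 1927 of 32898, 1714 of 15140, 527 of 21014 and 2002 of 21014. For tissue in shade the count of 2-oxidase loci was 2 with only the shaded libraries, against 0. Calls over all loci there were 4005 of 21014, against 2164. Whether libraries with the same replicate number in their titles were grown or harvested together is not stated. Deviations of same-numbered libraries correlated at r = 0.0319 between the coleoptile groups and 0.0854 between the first leaf groups, which cannot show the layout. The replicate block gave 0 called 2-oxidase loci for both shade comparisons, the difference and tissue in shade. Between the shaded groups r was -0.148, and a crossed replicate block, chosen after seeing the data, gave 0 for tissue in white light and 0 in the other comparisons.

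Directions turned only for values that were not called with all libraries. Over the fits without one library, GA2ox4 ran from -1.49 to 0.39 for coleoptile shade and from -0.90 to 0.98 for the difference, where it was -0.14 with a pseudocount of 0.1, and LOC_Os02g41954 from -0.74 to 2.95 for the difference. For first leaf shade GA2ox3 ran from -0.31 to 0.067, LOC_Os02g41954 from -2.10 to 0.15, GA2ox8 from -0.030 to 0.57 and LOC_Os01g11150 from -0.13 to 0.48. The cause was not tested. Over all loci, the 9 calls for coleoptile shade ran from 0 to 1739, the 0 for first leaf shade from 0 to 51 and the 4 for the difference from 0 to 887 without one library, and the 2303 and 2164 tissue calls from 741 to 4022 and from 541 to 4259. With 2 libraries per group and unknown fragment totals, small changes of low loci are beyond these data.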
